A study of Mus musculus with 2 samples.

Results

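The organic ion and drug transporters described here were the genes of the SLC22, SLCO, SLC47, SLC10 and SLC15 carrier families and of the ABCB and ABCC pump families, taken by gene symbol among the non-control spots. They were 75 genes, read by 98 probes, of 34737 genes and 55681 probes on the arrays. Total RNA came from the hippocampus of ICR mice, an outbred strain, 8 weeks after 5/6Nx (5/6 nephrectomy, surgical removal of most of the kidney tissue, a model of chronic kidney disease) or after a sham operation. There was 1 array for 5/6Nx and 1 array for sham, both 1-colour arrays of 60-base probes. The labels give no mutation or drug treatment in either group, and neither the age of the mice nor how many animals gave each RNA sample.

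SLC22 carriers move organic cations, carnitine or organic anions, and the kidney uses them to take up drugs and the protein-bound solutes that accumulate in uraemia. SLCO carriers take up bile acids, thyroid hormones, prostaglandins and drugs, SLC47 carriers expel organic cations in exchange for protons, SLC10 carriers bring in bile acids and sulphated steroids, and SLC15 carriers bring in small peptides. ABCB and ABCC pumps use ATP to expel drugs, conjugates and lipids, although some members sit in mitochondria or lysosomes and the sulfonylurea receptors of the ABCC family are channel subunits. In the brain these proteins are known from the endothelium of the blood vessels, the choroid plexus, which makes the cerebrospinal fluid, and the leptomeninges, the membranes around the tissue.

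With 1 array a group there is no replicate check, and each difference below describes these 2 arrays without a test. Signals are processed intensities as the scanner software gave them. Differences are log2 values of 5/6Nx minus sham after each array was set relative to its 75th percentile, which was 1263 in 5/6Nx and 1452 in sham, so equal signals give a small positive difference. The software's own error on a signal, about 10% for a bright spot, put an error of 0.20 to 0.34 log2 on the members' differences. Over all genes on the arrays with several measured probes, the probes of 1 gene differed by a median SD of 0.20. Probes of some members lay further apart, such as those of Slco1c1 at -0.28 and 0.80. The spot error and the spread of probes leave out the spread between animals. On the 5/6Nx array 72.5% of spots were well above background and on the sham array 72.7%, and no spot was saturated. All 10 markers of hippocampal neurons were measured on both arrays, with a median difference of 0.24. Of these 9 lay within 2-fold and 1, Wfs1, was at least 2-fold lower in 5/6Nx, at -1.12. Markers of 3 other tissues stood far apart: 13 of 14 measured choroid plexus markers were at least 2-fold higher in 5/6Nx, 10 of 13 leptomeningeal markers were at least 2-fold lower, and so were 9 of 10 measured blood cell markers. In these bulk samples fewer cells of a type and less RNA per cell cannot be told apart.

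Most of the transporter genes differed little between the 2 arrays. Of the 75 genes, 52 were measured, that is, well above background on both arrays. The gene for the sulphated steroid carrier Slc10a6 and the channel subunit gene Abcc9 were at least 2-fold higher in 5/6Nx, and the organic cation carrier gene Slc22a2 and the organic anion carrier gene Slc22a6 were at least 2-fold lower. These 2 higher genes were 3.85% of the 52, and 4.89% of the 25917 measured genes on the arrays lay as far in that direction. The 2 lower genes were likewise 3.85% of the members, and 3.29% of all measured genes were as low. The members' counts thus lay near the share of all genes, where 2120 genes (8.18%) were at least 2-fold apart in either direction. After quantile normalization the shares of all genes were 3.87% higher and 4.0% lower, with 1 member higher and 3 lower. After scaling to the median they were 3.48% and 4.74%, with 1 member higher and 2 lower.

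The median difference of the members was 0.13, beside 0.05 for all measured genes. With arrays scaled to the median the members' median was -0.03 and that of all genes was -0.11. Above 0 lay 32 of the 52 members (61.5%), beside 55.4% of all genes, but 24 with arrays scaled to the median. Of the members 37 (71.2%) lay within 1.5-fold, beside 77.4% of all genes. The SD of the difference was 0.76 across the members and 0.60 across all genes. Across genes within these 2 arrays, which are not independent replicates, the levels correlated at a Pearson r of 0.968 for the members and 0.983 for all genes. Abcc9 was just past the 2-fold size, and Slco2a1, Abcc6 and Slc47a2 were under it, with values given below.

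**Figure D1:**
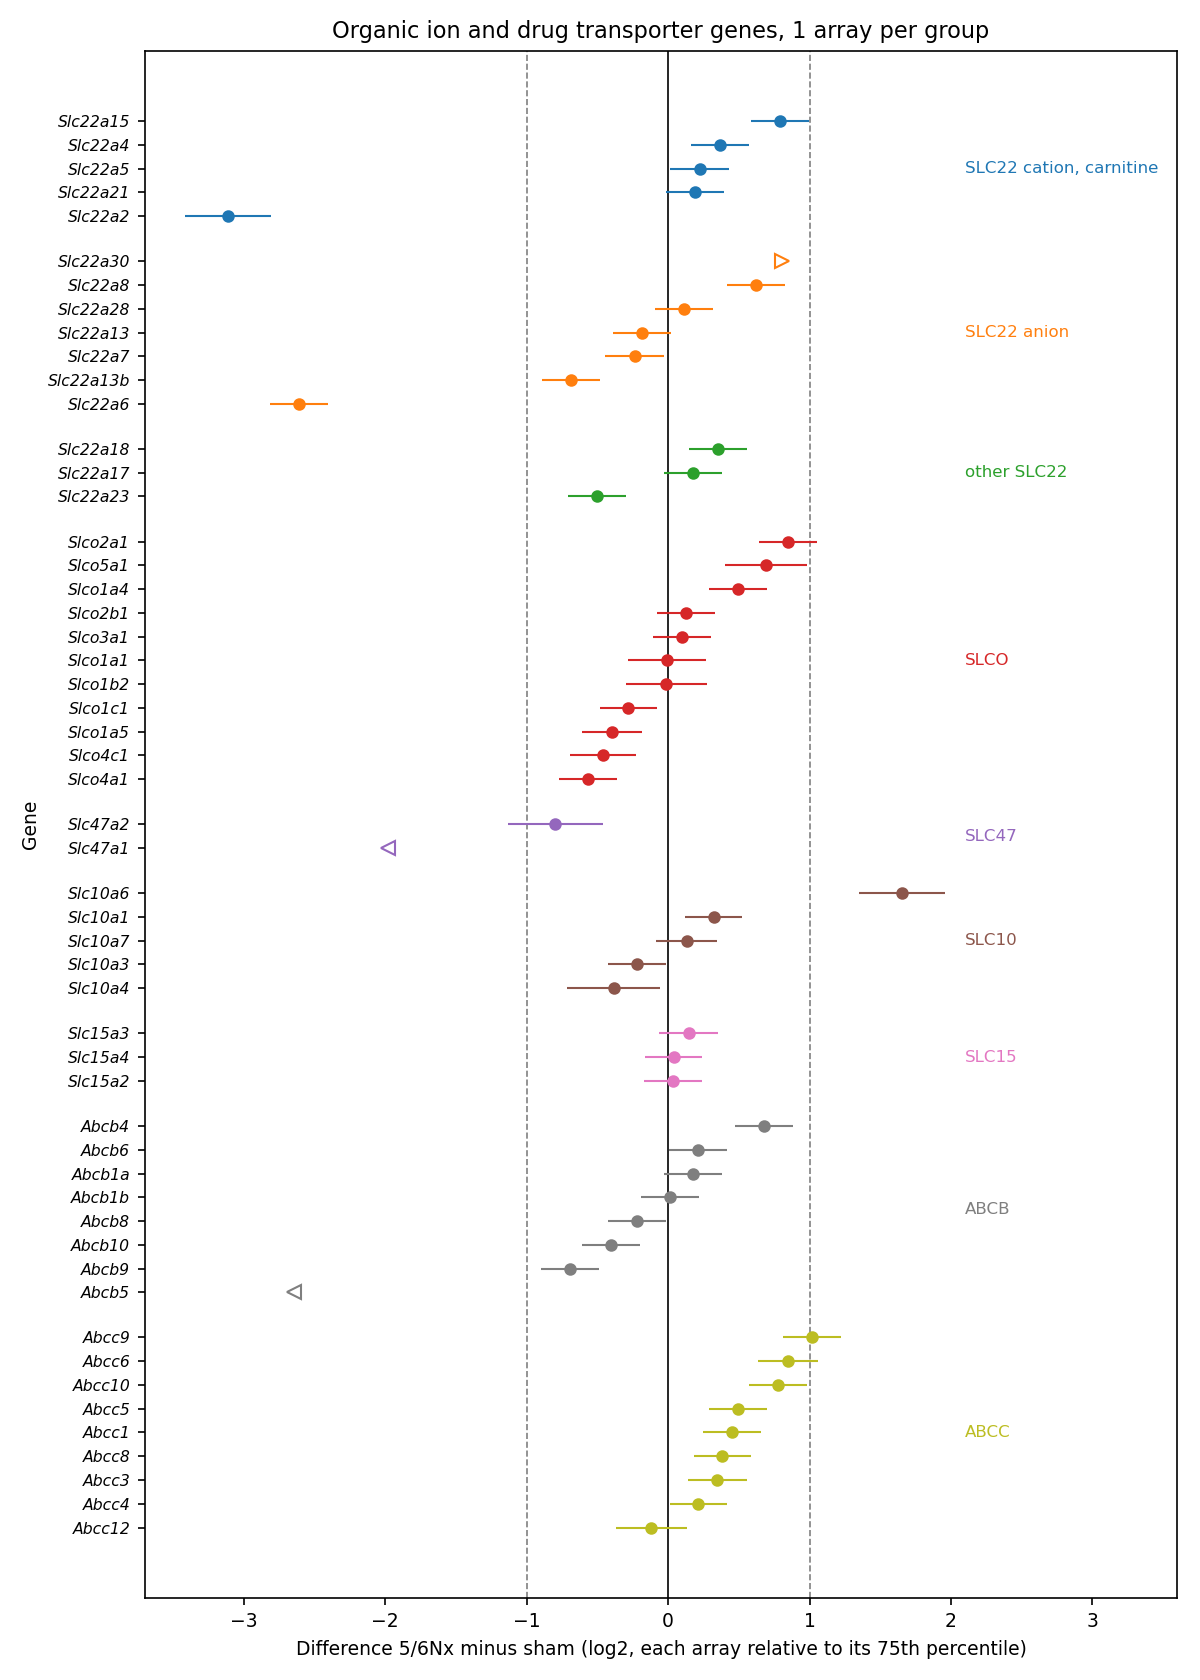
Difference of the reported transporter genes above background on at least 1 array, 5/6Nx minus sham in log2 (x axis), grouped by family (y axis). Points are measured genes with bars for the spot error of the 2 signals, triangles are bounds that point away from 0, and dashed lines mark 2-fold; Slc22a2 at -3.11 and Slc22a6 at -2.61 lie far to the left and Slc10a6 at 1.65 to the right.

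Among the carriers of organic cations and carnitine, 6 of 8 genes were measured. Slc22a2, the organic cation transporter OCT2, had a signal of 24.4 in 5/6Nx, against 243 in sham. That is 8.65-fold lower, a log2 difference of -3.11 with a spot error of 0.30, and the 5/6Nx signal was close to the lowest signal well above background on that array (17.1). The Slc22a2 difference was -1.68 with normexp background correction and -1.51 without background subtraction, still at least 2-fold lower. The other 5 measured genes lay above 0 under every scaling and background setting tried. Slc22a15, a carrier of cations and zwitterions, had 915 in 5/6Nx and 607 in sham, a difference of 0.79, and its other probe gave 0.89. The ergothioneine carrier Slc22a4 differed by 0.37, the carnitine carrier Slc22a5 by 0.22 and its mouse relative Slc22a21 by 0.19. Slc22a3, the cation carrier OCT3, and Slc22a16 were not well above background on either array.

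Among the organic anion carriers, 6 of 14 genes were measured. Slc22a6, the anion exchanger OAT1 that takes up indoxyl sulphate and other uraemic solutes in the kidney, had a signal of 447 in 5/6Nx, against 3138 in sham. That is 6.11-fold lower, a difference of -2.61 with a spot error of 0.20. Slc22a8, the related exchanger OAT3, went the other way, with 448 in 5/6Nx and 334 in sham, a difference of 0.62 (1.54-fold). The 2 genes carry out a similar exchange and their probes pointed in opposite directions. Slc22a13b had 294 in 5/6Nx and 543 in sham, a difference of -0.68. Slc22a7 differed by -0.24, Slc22a13, a urate and nicotinate carrier, by -0.19, and Slc22a28 by 0.11. A second Slc22a28 probe, at 3.87 in 5/6Nx and 3.72 in sham, cleared background in neither group. Slc22a30 was above background in 5/6Nx only, with 33.0 in 5/6Nx and 21.7 in sham, at least 1.75-fold higher. The kidney urate carrier Slc22a12 was among the 7 anion carriers not well above background.

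Both SLC47 genes were lower in 5/6Nx than in sham. Slc47a1, the proton exchanger MATE1 that expels organic cations, had 11.6 in 5/6Nx, which was not well above background, against 77.3 in sham, so it was at least 3.95-fold lower (a bound of -1.98). The Slc47a1 bound was -0.76 with normexp and -0.58 without background subtraction, both under 2-fold. Slc47a2, its relative MATE2, had 26.4 in 5/6Nx and 52.7 in sham, a difference of -0.80. The Slc47a2 difference depended on the background setting, at -0.09 with no background subtraction and -1.01 after quantile normalization.

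**Figure D2:**
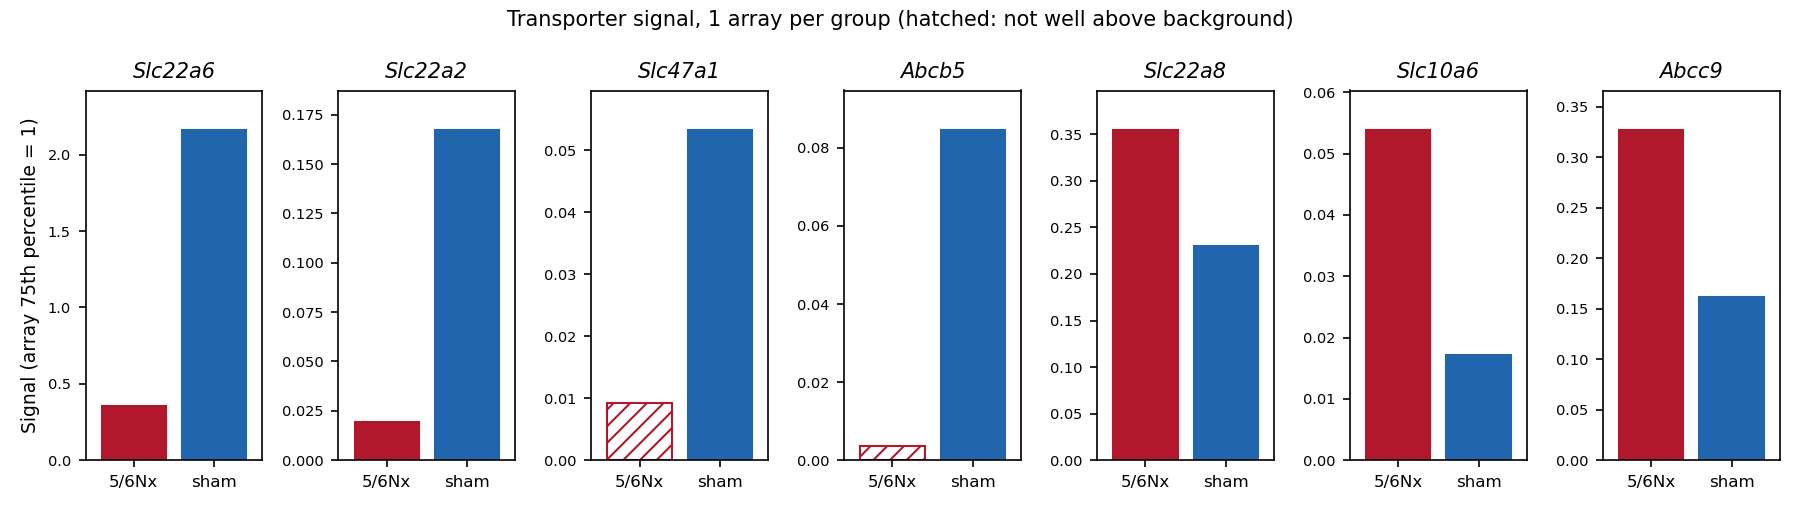
Signal of 7 transporter genes relative to the 75th percentile of each array (y axis, linear, starting at 0), 5/6Nx on the left and sham on the right, 1 array each. Hatched bars were not well above background; Slc22a6, Slc22a2, Slc47a1 and Abcb5 have the shorter bar in 5/6Nx, and Slc22a8, Slc10a6 and Abcc9 have the taller one.

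The probes behind these low values are shown by their middle stretch of 30 bases, since each gene was read at 1 place only, with the probe's coordinates on mm9 as in the scanner files. The probe of Slc22a8 is shown beside them as the carrier that differed in the other direction. What lies at these positions (exon or untranslated region) was not analysed here.
Slc22a6 probe, chr19:8700868-8700927, plus strand: agcttcttaagcagaatgagctcttcctca
Slc22a2 probe, chr17:12821245-12821304, plus strand: tggtttctttctccaagcatgacatcaaac
Slc47a1 probe, chr11:61157910-61157969, minus strand: gaaccagcaacaagctttgcctatccgtcc
Slc22a8 probe, chr19:8686250-8686309, plus strand: ctcaagtatgtatttagagatttgagaggg

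Slc22a6, Slc22a2, Slc47a1 and Slc22a8 are also known as transporters of the leptomeninges. Of these 4 genes 3 were measured and 2 were at least 2-fold lower, beside 3.29% of all measured genes. The median difference of -2.61 was the Slc22a6 value. The list was chosen with earlier results of these data known and holds the low carriers Slc22a6, Slc22a2 and Slc47a1. Its median is therefore not an independent result. The 13 leptomeningeal markers had a median of -1.99 and ranged from -2.59 to 0.07. Their summed level was 15.3 in 5/6Nx and 56 in sham, in units of the array's 75th percentile. The retinoic acid enzyme gene Aldh1a2 differed by -2.59, the GABA carrier gene Slc6a13 by -2.53, the collagen gene Col3a1 by -2.52 and the proteoglycan gene Dcn by -1.99, while Bgn differed by 0.07. No leptomeningeal marker was at background on either array. The part of these cells in the Slc22a6, Slc22a2 and Slc47a1 values was not tested.

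Of the transporters known from the choroid plexus, Slco1a5, Slc15a2, Slc22a8, Abcc1 and Abcc4 were all measured, none was 2-fold apart by its shown probe and their median difference was 0.21. A second probe of Slco1a5, above background in 5/6Nx only, was at least 3.35-fold higher. The 14 measured choroid plexus markers had a median of 2.73, a range of 0.55 to 6.66 and a summed level of 229 in 5/6Nx and 19.1 in sham. Cldn2, a junction gene of that epithelium, was above background in 5/6Nx only, at least 8.64-fold higher. The transporters known from brain endothelium, Abcb1a, Abcc4, Slco1a4, Slco1c1 and Slc22a8, also had a median of 0.21, with none 2-fold apart, and the 12 endothelial markers had a median of 0.09 and a summed level of 60.7 in 5/6Nx and 57.4 in sham. Slc22a8 stands in all 3 lists and Abcc4 in the choroid plexus and endothelium lists.

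**Figure D3:**
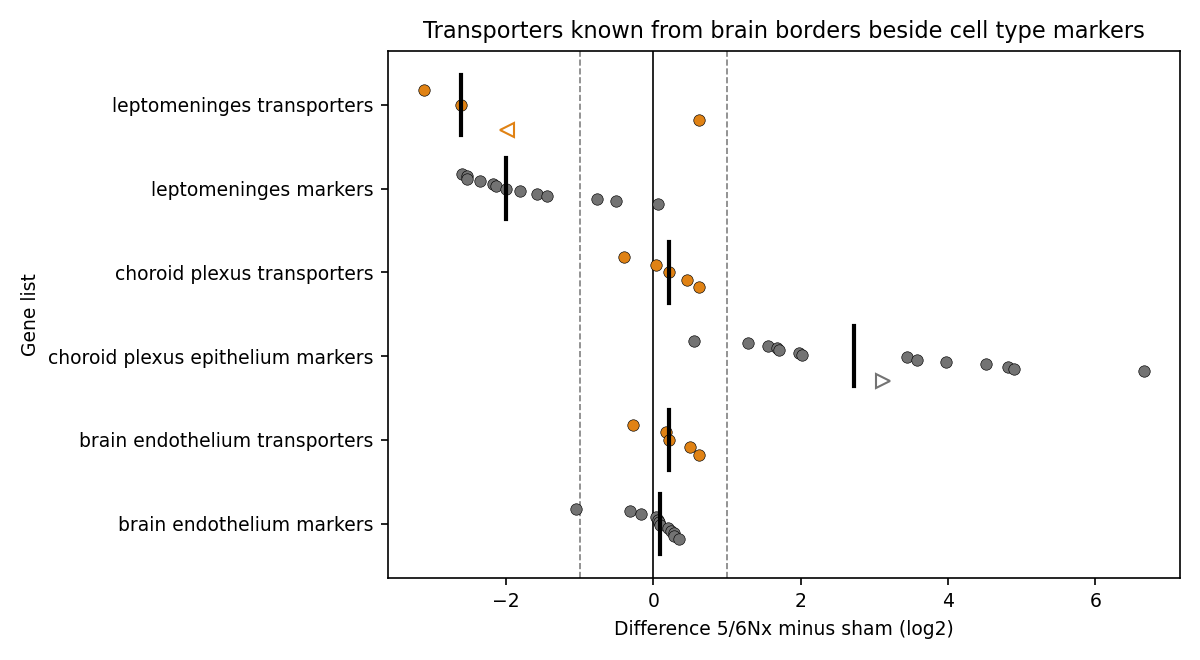
Differences of transporters known from the brain's borders (orange) and of markers of the same tissues (grey), 5/6Nx minus sham in log2 (x axis), by gene list (y axis). The lists were chosen with earlier results of these data known. Black bars are medians of the measured genes, triangles are bounds and dashed lines mark 2-fold; leptomeningeal transporters and markers lie mostly left of 0 (medians -2.61 and -1.99), whereas choroid plexus transporters lie near 0 (median 0.21) and choroid plexus markers to the right (median 2.73).

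The carrier genes at brain barriers that take up hormones and drugs, the SLCO family, were spread on both sides of 0. Of 15 genes 11 were measured, 5 lay above 0, none was 2-fold apart and the median difference was -0.01, ranging from -0.57 to 0.85. With quantile normalization the median was -0.21 and without background subtraction it was 0.14, so the family had no settled direction. Slco2a1, the prostaglandin carrier, had 787 in 5/6Nx and 503 in sham, a difference of 0.85. Slco5a1, whose substrates are not settled, had 47.1 in 5/6Nx and 33.5 in sham, a difference of 0.69. A second Slco5a1 probe, at 10.1 in 5/6Nx and 15.3 in sham, cleared background in neither group. Slco1a4, a drug and bile acid carrier of brain endothelium, had 1021 in 5/6Nx and 833 in sham, a difference of 0.49.

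On the other side lay Slco4a1, a thyroid hormone carrier, at -0.57, and Slco4c1, a carrier of digoxin and uraemic solutes in the rat kidney, at -0.46. Slco1a5, known from the choroid plexus, had 106 in 5/6Nx and 161 in sham by its shown probe, a difference of -0.40. Its other probe had 50.5 in 5/6Nx, against 3.66 in sham, where it was not well above background, at least 3.35-fold higher, so the 2 probes of Slco1a5 contradicted each other. Slco1c1, the thyroxine carrier of the blood-brain barrier, had 1539 in 5/6Nx and 2148 in sham by its shown probe, a difference of -0.28. The other Slco1c1 probe had 2187 in 5/6Nx and 1446 in sham, a difference of 0.80. By their shown probes, the steroid sulphate carrier Slco2b1 (0.13), Slco3a1 (0.10), Slco1a1 (-0.01) and the liver carrier Slco1b2 (-0.01) lay near 0. The other Slco3a1 probes gave 0.25 and -0.43, so its probes lay on both sides of 0. The shown Slco1c1 probe shares at least 1 word of 15 bases with 7 probes of other genes, and the other Slco1c1 probe with 0. The stretches of the Slco1c1 probes, with coordinates on mm9, are given to show that the disagreeing pair reads different places of the gene.
Slco1c1 shown probe, chr6:141517875-141517934, plus strand: actttttgttttaaagaaaaaatatgtctc
Slco1c1 other probe, chr6:141518164-141518223, plus strand: gactctaagcataacatgacaaacctctaa

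Different probes were available for more genes. In 10 member genes more than 1 probe was measured, and in 5 of them all probes lay on 1 side of 0, whereas in the other 5 they lay on both sides. Abcc5 was read by 4 measured probes with differences of 0.49, 0.05, 0.66 and -0.07. One of these probes stood in 10 spots, whose signals ran from 10511 to 11673 in 5/6Nx and from 8695 to 9528 in sham, so the spots of the 2 arrays did not overlap before scaling. Their SD was 0.05 log2 in 5/6Nx and 0.04 in sham, smaller than the gap between the probes of the gene.

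**Figure D4:**
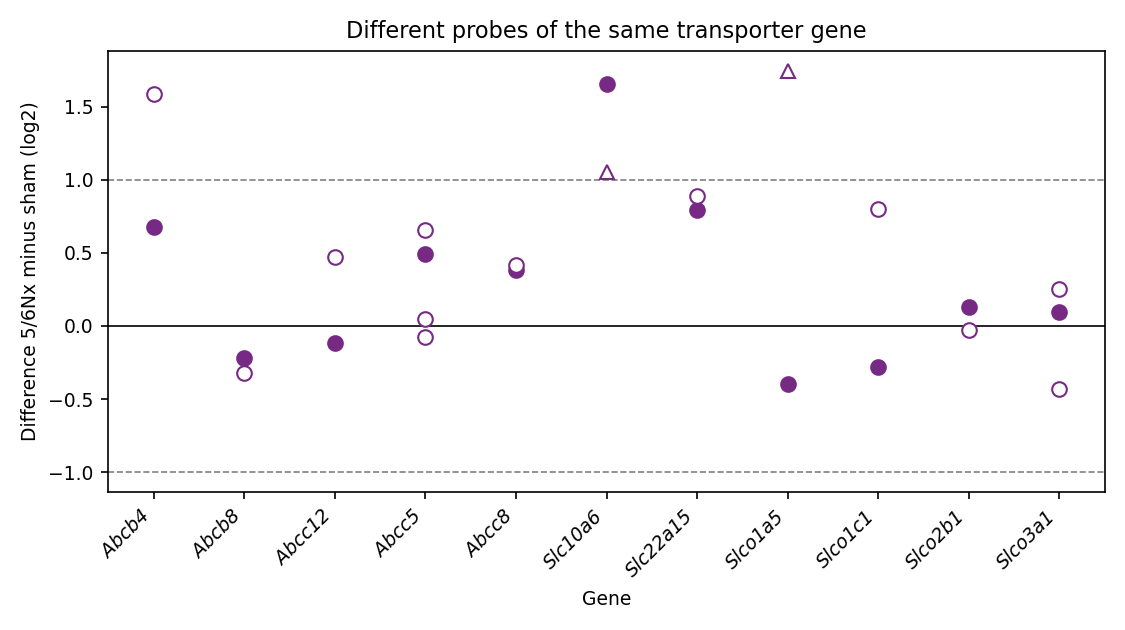
Difference of each probe, 5/6Nx minus sham in log2 (y axis), for the reported transporter genes with more than 1 usable probe (x axis). Filled points are the probes shown for the gene, open points other measured probes, triangles bounds of probes above background in 5/6Nx only, and dashed lines mark 2-fold; the probes of Slco1a5 and Slco1c1 lie on both sides of 0 and those of Slc10a6 both lie above 1.

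Of the 7 SLC10 genes 5 were measured, with a median of 0.13 that was -0.04 after quantile normalization. It was also -0.04 over the 4 genes left without the bright Slc10a1 probe described below. Slc10a6, the sodium-dependent carrier of sulphated steroids, had 68.0 in 5/6Nx, against 24.8 in sham, 3.15-fold higher (1.65, spot error 0.30). A second Slc10a6 probe had 34.5 in 5/6Nx and 19.1 in sham, where it was not well above background, at least 2.08-fold higher, so both probes pointed the same way. Both Slc10a6 signals in sham were close to background, and the difference was 0.81 with normexp background correction and 0.73 without background subtraction. Slc10a4, a synaptic vesicle protein of cholinergic and monoaminergic neurons, had 32.6 in 5/6Nx and 48.9 in sham, a difference of -0.38 that was 0.02 without background subtraction. Slc10a7 differed by 0.13 and Slc10a3 by -0.22, and the intestinal bile acid carrier Slc10a2 and Slc10a5 were not well above background.

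Slc10a1, the bile acid carrier NTCP of liver cells, gave the brightest signal of each array, 553436 in 5/6Nx and 509087 in sham, a difference of 0.32. Its other probe had 12.5 in 5/6Nx and 4.37 in sham and did not clear background on these arrays. The bright probe shares at least 1 word of 15 bases with 68 of 32851 RefSeq promoters (0.207%) and with 24 probes of other genes. Its letters resemble the B1 repeat, a short element spread over the mouse genome. The 0.32 is therefore given as the value of this probe and not of Slc10a1. Without the probe, 2 members were still higher and 2 lower and the median was 0.13. The capitals below mark the word found in most promoters, 11 of them.
Slc10a1 bright probe, chr12:82056539-82056598, minus strand: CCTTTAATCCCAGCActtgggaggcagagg
Slc10a1 other probe, chr12:82061470-82061529, minus strand: tgttatcactcgtcatggttctcattcctt
Slc10a6 probe, chr5:104035070-104035129, minus strand: cttgtttcctgtttgttttcatagctgatc

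**Figure D5:**
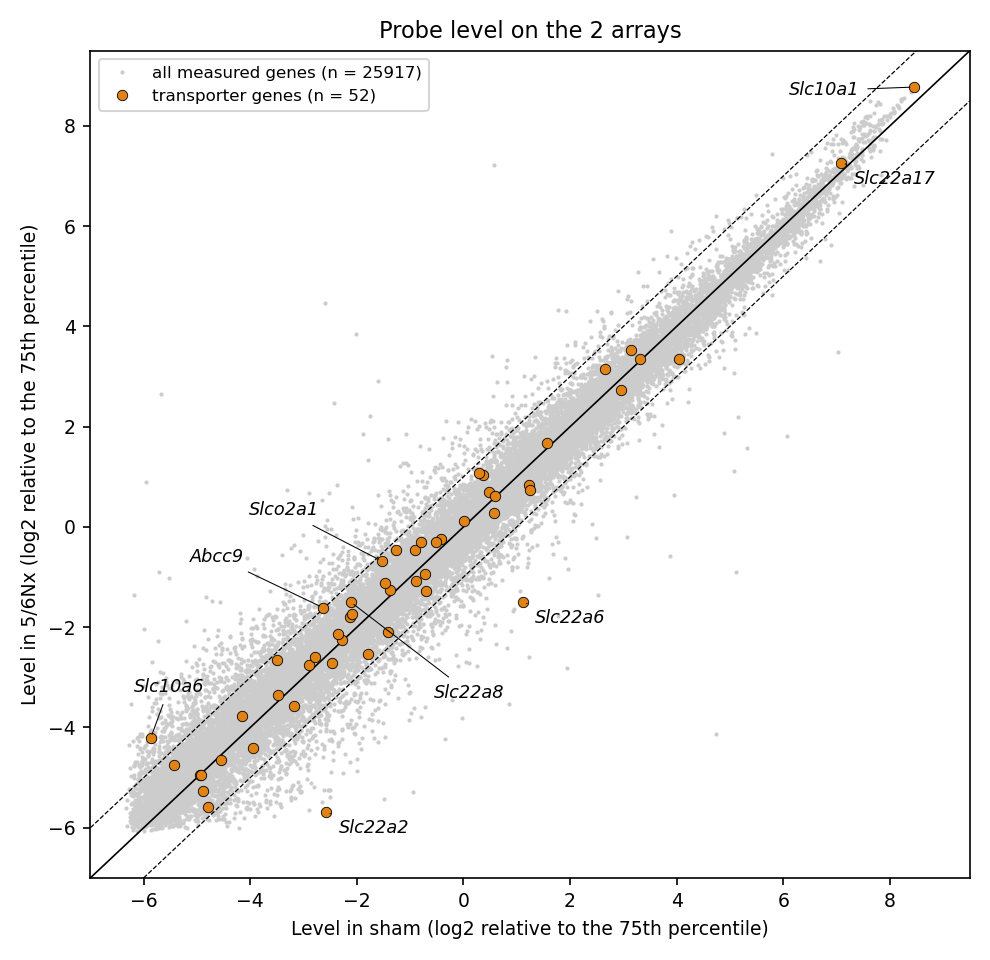
Level of each measured gene, 5/6Nx (y axis) against sham (x axis), in log2 relative to each array's 75th percentile. Grey points are all 25917 measured genes, orange points the 52 transporter genes, and dashed lines mark 2-fold; Slc22a6 and Slc22a2 lie far below the diagonal, and the bright Slc10a1 probe sits at the upper end of both axes.

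The SLC15 peptide carriers were the least spread family with over 1 measured gene. Slc15a2, the choroid plexus and astrocyte carrier PEPT2, had 1939 in 5/6Nx and 2177 in sham, a difference of 0.03. Slc15a4, a lysosomal carrier of histidine and peptides, had 12963 in 5/6Nx and 14509 in sham, a difference of 0.04, and its relative Slc15a3 had 187 in 5/6Nx and 194 in sham, a difference of 0.15. All 3 lay above 0 and none did with arrays scaled to the median. The intestinal carrier Slc15a1 and Slc15a5 were not well above background.

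Of the 10 ABCB genes 8 were measured, 4 lay above 0, none was 2-fold apart by its shown probe and the median was -0.10. Abcb1a, the P-glycoprotein of the blood-brain barrier, had 1070.3 in 5/6Nx and 1089 in sham, a difference of 0.18, and its neighbour Abcb1b had 264 in 5/6Nx and 301 in sham, a difference of 0.01. Both values lay within their spot error of 0.20 and 0.21. Abcb4, which exports phosphatidylcholine into bile, had 2590.2 in 5/6Nx and 1861 in sham, a difference of 0.68, and its other probe gave 1.59, so that the mean over both was 1.13, past 2-fold. The lysosomal peptide pump Abcb9 had 12800.2 in 5/6Nx and 23815 in sham, a difference of -0.70. Over 7 transporters known from mitochondria, lysosomes and other organelles, among them Abcb8 (-0.22) and Abcb10 (-0.40), the median was -0.22 and none was 2-fold apart. Abcb5 was above background in sham only, with 4.44 in 5/6Nx and 123 in sham, at least 6.26-fold lower (a bound of -2.65), and its other 2 probes were not well above background on either array. The Abcb5 bound was -1.14 with normexp and -0.87, under 2-fold, without background subtraction. The bile salt pump Abcb11 was not well above background.

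The ABCC genes lay mostly above 0. Of 10 genes 9 were measured and 8 of these (88.9%) were above 0, beside 55.4% of all measured genes. The median was 0.45, beside 0.05 for all measured genes. Above 0 lay 8 or 9 of the 9 under every scaling and background setting tried. When arrays were scaled to the median, the family's median was 0.30, beside -0.11 for all measured genes. Abcc9, the sulfonylurea receptor SUR2 of vascular potassium channels, had 413 in 5/6Nx and 234 in sham, 2.03-fold higher (1.02, spot error 0.21). It lay just under 2-fold in 5 settings, at 0.83 to 0.92. Kcnj8, the channel pore gene that works with it in mural cells of vessels, differed by 0.86. It is 1 of the 8 mural cell markers and the highest of them. The 8 markers ranged from -1.33 to 0.86, with 4 above 0 and 4 below, and had a median of -0.16. Their summed level was 14.3 in 5/6Nx and 19.8 in sham. Their part in the Abcc9 value was not tested. Abcc8, the other sulfonylurea receptor, known from neurons, had 14524 in 5/6Nx and 12795 in sham, a difference of 0.38, with 0.41 by its other probe.

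Among the ABCC pumps, Abcc6, needed for ATP release from liver cells, had 202 in 5/6Nx and 129 in sham, a difference of 0.85. Abcc10 had 2654 in 5/6Nx and 1780.2 in sham, a difference of 0.78. Abcc1, the conjugate pump MRP1 of the choroid plexus, had 923 in 5/6Nx and 775 in sham, a difference of 0.45, and Abcc4, the pump MRP4 for cyclic nucleotides and organic anions, had 1025 in 5/6Nx and 1015 in sham, a difference of 0.21. Abcc3 differed by 0.35. Abcc12 was the only measured ABCC gene below 0, at -0.12, and its other measured probe gave 0.47. The liver pump Abcc2 was not well above background. Of the remaining SLC22 genes, Slc22a23 had 2106 in 5/6Nx and 3437 in sham, a difference of -0.51. Slc22a18 had 381 in 5/6Nx and 342 in sham, a difference of 0.36, and Slc22a17, the lipocalin receptor, had 194311 in 5/6Nx and 197785 in sham, a difference of 0.18.

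The 20 genes with no probe well above background had shown signals of 3.84 to 13.6 in 5/6Nx and 3.78 to 14.3 in sham, so a difference between the groups was not detectable for them. Besides those named, they were Slc22a14, Slc22a19, Slc22a20, Slc22a22, Slc22a26, Slc22a27, Slc22a29, Slco1a6, Slco6b1, Slco6c1 and Slco6d1.

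Members that are neighbours in the genome did not always lie on the same side. In the order of protein-coding genes of RefSeq (GRCm38.p6), 29 member genes formed 19 neighbouring pairs. In 8 pairs both genes were measured, and 5 of these 8 had the same sign. Some of these signs rest on differences close to 0, those of Abcb1b (0.01), Slco1a1 (-0.01) and Slco1b2 (-0.01), and that of Slco1c1 depends on the probe. The share was not counted for neighbouring genes outside the members, so 5 of 8 is a description only. On chromosome 19 Slc22a8 (0.62) lies next to Slc22a6 (-2.61), and on chromosome 17 Slc22a2 (-3.11) lies next to Slc22a3, which was not well above background. On chromosome 11 Slc47a2 (-0.80) lies next to Slc47a1 (bound -1.98), and Slc22a5, Slc22a21 and Slc22a4 lie together at 0.22, 0.19 and 0.37. On chromosome 5 Abcb1a, Abcb1b and Abcb4 lie together at 0.18, 0.01 and 0.68. The 250 bases upstream of the start of Slc22a6, Slc22a8 and Slc22a2 are printed, as RefSeq gives them on GRCm38.p6, because these carriers include a neighbouring pair with opposite differences. The capitals mark GTTAAT, one side of the palindrome that HNF1 factors bind, searched on both strands.
Slc22a6 upstream region, chr19:8617746-8617995, plus strand: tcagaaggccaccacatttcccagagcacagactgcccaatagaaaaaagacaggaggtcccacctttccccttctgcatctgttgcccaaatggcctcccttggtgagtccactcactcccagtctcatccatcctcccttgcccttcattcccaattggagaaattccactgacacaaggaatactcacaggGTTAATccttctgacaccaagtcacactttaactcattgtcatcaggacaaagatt
Slc22a8 upstream region, chr19:8592932-8593181, plus strand: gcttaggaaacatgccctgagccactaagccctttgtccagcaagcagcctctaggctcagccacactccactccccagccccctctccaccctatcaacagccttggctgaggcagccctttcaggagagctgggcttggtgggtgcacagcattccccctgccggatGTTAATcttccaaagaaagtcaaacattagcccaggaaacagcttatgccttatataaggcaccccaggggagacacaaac
Slc22a2 upstream region, chr17:12583939-12584188, plus strand: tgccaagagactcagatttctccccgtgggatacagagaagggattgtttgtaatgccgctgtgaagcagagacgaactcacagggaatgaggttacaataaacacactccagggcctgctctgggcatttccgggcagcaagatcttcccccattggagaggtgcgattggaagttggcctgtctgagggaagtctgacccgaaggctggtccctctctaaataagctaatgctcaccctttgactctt

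GTTAAT was found at -56 in Slc22a6 and at -81 in Slc22a8, counted from the start, and these letters are not in the Slc22a2 window. In the 250 bases before the start, 6.43% of all 32851 promoters hold it. So do 5 of the 67 promoters (7.46%) that matched 59 of the 75 member genes. The shares below were counted over the same bases. GCGTG, the core bound by the aryl hydrocarbon receptor, stood in 12 member promoters (17.9%), beside 28.2% of all promoters. TGACNNNGC, the antioxidant response element bound by NRF2, stood in 9 (13.4%), beside 10.2% of all. TATAAA stood in 8 (11.9%), beside 12.4% of all. A match is a description of the letters only.

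Transporters of organic ions and drugs outside these families were read for comparison. Of 19 such genes 17 were measured, with a median of 0.21. Of these 4 (23.5%) were at least 2-fold higher, beside 4.89% of all measured genes, and none was lower, beside 3.29%. The list was chosen with earlier results of these data known, so its share is a description only. No alternative setting is given for these genes. The urate carrier gene Slc2a9 had 314 in 5/6Nx and 93.9 in sham, a difference of 1.94. The nucleoside carrier gene Slc28a3 had 157 in 5/6Nx and 61.7 in sham, a difference of 1.55, and the amino acid carrier gene Slc7a8 had 3636 in 5/6Nx and 1849 in sham, a difference of 1.18. The fourth was the cholesterol pump gene Abca1, at 1.15. The drug pump gene Abcg2 of the blood-brain barrier had 3407 in 5/6Nx and 4652 in sham, a difference of -0.25.

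Among 23 regulators and scaffold proteins of transporters 20 were measured, 1 (5%, beside 4.89% of all genes) was at least 2-fold higher, none was lower, beside 3.29%, and the median was 0.02. Nr1i3, the xenobiotic receptor CAR, had 1458 in 5/6Nx and 751 in sham, a difference of 1.16. Nr1h3, the oxysterol receptor LXR alpha, had 666 in 5/6Nx and 1442 in sham, a difference of -0.91, and Cav1, the coat protein of caveolae, had 103 in 5/6Nx and 71.4 in sham, a difference of 0.74. Ahr, the aryl hydrocarbon receptor that binds indoxyl sulphate, differed by -0.24. The xenobiotic receptor gene Nr1i2 and the liver factor gene Hnf4a were not well above background, and Esr1 was above background in sham only.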

How the data were processed

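The deposited scanner files give a linear intensity for each spot. Feature Extraction 10.7.1.1 made them, per the file headers, and the submitters' processing notes give 9.5.1.1. The processed intensity is corrected for background within each array and not normalized between arrays. The authors' deposited table holds 1 linear intensity per probe, with a median of 124 in each column. On the log2 scale its columns correlated at 1.000 with their own array and 0.983 with the other over 55674 probes, and it served as an alternative.

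Control spots and outlier-flagged spots (97 in 5/6Nx, 105 in sham, none of a member) were left out. The log2 processed intensity was taken relative to each array's 75th percentile, and spots of a probe were averaged. A gene was shown by its brightest probe that cleared background on 1 array or both, and counted as measured if both arrays cleared it. Otherwise a bound was computed against the dim array's lowest signal above background, or the dim probe's signal where that was higher. A gene was counted as higher or lower at 2-fold, a size and not a test. No p-value was computed; the number of arrays limits the precision.

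Probes were named through RefSeq (GRCm38.p6): accessions named 27235, symbols 3581 and synonyms 565, and 24300 stayed as in the file. All 98 member probes carried the current symbol. Members, lists and alternatives were chosen with earlier results of these data known. Values were given on both arrays for members at least 2-fold apart or bounded so, the 2 most different of each family, 7 barrier transporters, genes whose probes disagreed, and the 3 most different of other lists; further genes were named after their values were seen. Calculations used Python 3.11.15, pandas 2.3.3 and limma 3.58.1 (normexp, offset 50) and were tested on simulated data. Values of some members, and the sequence of some probes, are not reported here; the counts and medians include all members.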

Additional observations from a re-analysis of the deposited data

How the results depend on the processing

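The members' median difference was 0.13 and lay between -0.03 and 0.20 under the alternatives. The 2 genes at least 2-fold higher in 5/6Nx became 1 with quantile normalization, median scaling, the authors' deposited table or a 3-fold size. Of all genes 3.87%, 3.48%, 3.89% and 1.49% were higher in these settings. The 2 higher genes became 0 with normexp (2.64% of all genes) or without background subtraction (2.45%). With the mean over probes, where Abcb4 was 1.13, 3 were higher, beside 4.6% of all genes. With no filter on dim probes 5 of 75 were higher, beside 7.46% of all genes. The 2 lower genes became 4 of 75 with no filter, beside 4.8% of all genes. With genes above background on 1 array included 4 of 55 were lower, beside 3.83%. At the 1.5-fold size 9 of 52 were higher and 6 lower. Of all measured genes 13.7% were 1.5-fold higher and 8.92% lower. Members above 0 numbered 32 of 52, 24 with median scaling and 49 of 75 with no filter. The median of all genes moved with them, at 0.05, -0.11 with median scaling and 0.11 with no filter. Slc22a2 ranged from -3.28 to -1.51 and Slc22a6 from -2.77 to -2.40, both at least 2-fold lower in each alternative run. The Slc47a1 bound ranged from -2.19 to -0.58 and the Abcb5 bound from -2.84 to -0.87, weakest without background subtraction. With no filter their plain differences, which rest on dim signals, were -2.54 and -4.59. Slco1c1 was 0.26 with the mean over its probes. Of 360 single values compared, 320 moved by less than the spread and 40 by more, and no called value changed sign. Leaving out the bright Slc10a1 probe was chosen after seeing the data. No paired analysis was possible because there is 1 array for 5/6Nx and 1 for sham, and so no array could be left out. Low signals limit what can be said of genes near background.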
